A study of Mus musculus with 12 samples.

Results

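The genes described are 37 genes of glycolysis and of the response to low oxygen, given as a list of names: glucose transporters, glycolytic enzymes, genes that handle pyruvate and lactate, the oxygen-regulated factor Hif1a with its sensors, and genes that low oxygen is known to induce. Of these, 35 had a probe set that names a single gene, out of 18194 genes measured that way, and the values of a gene come from its brightest such probe set. Gpi1 and Eno1 were the listed genes without one. One purpose of the study was to find messenger RNAs that change, or hold steady, while the mouse neural tube forms.

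RNA had been taken from neural tubes cut by microdissection from mouse embryos of the ICR (CD-1) strain, at 3 stages named by gestation day (GD): GD8.5, then GD9.0, then GD9.5. Day 0 was set by the morning of the vaginal plug. Each stage had 4 biological replicates hybridised to Affymetrix whole-genome mouse arrays, which carry several short probes per transcript. The labels call the replicates biological but do not say how many embryos or litters each holds, so p-values measure the spread between these samples. The main comparison uses the 10 arrays deposited on a log2 scale, 2 at GD8.5 (replicates 3 and 4), 4 at GD9.0 and 4 at GD9.5, because GD8.5 replicates 1 and 2 were deposited on a linear scale. A difference of 1 in log2 level is a doubling of signal. Levels of named genes are compared within a gene and never between genes, since probe sets differ in brightness. A level of 1.42 or less was taken as background, the 95th percentile of 39 olfactory receptor genes.

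Glycolysis splits glucose into pyruvate in the cytosol. Glut transporters bring glucose in, hexokinases trap it, phosphofructokinases commit it, and later enzymes recover energy as ATP. Pyruvate then either enters mitochondria or becomes lactate, which monocarboxylate transporters export. When oxygen is scarce, prolyl hydroxylases (the Egln enzymes) no longer mark HIF-1 alpha for destruction, and the factor binds a short core sequence, either ACGTG or the variant that reads GCGTG, near many of these same genes. Rodent embryos at the start of organ formation are known for high glucose use and lactate output, which lessen as their circulation develops.

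The core sequence that HIF proteins bind lies close to the start of several of these genes, and the promoters printed here belong to genes on which the results turn. They include steeply falling genes with and without the ACGTG core, and Ldhb, which rose. Each stretch is from RefSeq on GRCm38.p6, read 5′ to 3′ on the gene's strand, and ends before or at the region of the transcription start. Capitals mark each match of the ACGTG core or of its GCGTG variant, on either strand, so a reverse match shows its complement.
Slc2a1: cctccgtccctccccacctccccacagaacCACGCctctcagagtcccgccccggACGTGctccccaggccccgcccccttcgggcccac
Pgk1: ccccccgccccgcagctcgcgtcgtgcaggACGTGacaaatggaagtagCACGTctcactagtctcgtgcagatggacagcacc
Ldha: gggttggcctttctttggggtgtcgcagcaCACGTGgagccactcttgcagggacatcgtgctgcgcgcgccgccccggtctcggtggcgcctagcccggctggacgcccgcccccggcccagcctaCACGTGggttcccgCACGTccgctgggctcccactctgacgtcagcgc
Slc16a1: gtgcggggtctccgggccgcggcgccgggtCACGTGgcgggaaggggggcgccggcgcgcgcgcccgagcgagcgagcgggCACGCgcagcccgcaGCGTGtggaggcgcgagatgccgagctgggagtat
Bnip3: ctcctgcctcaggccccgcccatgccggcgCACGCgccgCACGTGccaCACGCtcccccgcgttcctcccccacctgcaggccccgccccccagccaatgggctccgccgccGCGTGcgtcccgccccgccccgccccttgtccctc
Adm: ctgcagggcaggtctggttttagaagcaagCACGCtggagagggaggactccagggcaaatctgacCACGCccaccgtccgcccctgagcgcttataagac
Ldhb: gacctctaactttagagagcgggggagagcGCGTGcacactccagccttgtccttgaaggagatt
These stretches span, in the same order, chr4:119108654-119108743 (plus strand), chrX:106186920-106187003 (plus strand), chr7:46845629-46845803 (plus strand), chr3:104638434-104638564 (plus strand), chr7:138909507-138909653 (minus strand), chr7:110627537-110627637 (plus strand) and chr6:142508049-142508113 (minus strand). The Ldha stretch holds CACGTG at -145 and again at -48 from the start, each of which reads as ACGTG on both strands, and a further reverse match at -34. The Bnip3 stretch holds 5 matches between -117 and -35, counting its single CACGTG on both strands. The Adm stretch holds only GCGTG, at -90 and -54, and the Ldhb stretch only 1 GCGTG, at -126.

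ACGTG stood on either strand in 29 of the 49 promoter windows of the listed genes (59.2%), against 22.9% of 18110 windows of genes on the array and 19.6% of all 32851 windows. A window is 300 bases, 250 before the start and 50 after it. Slc2a3 and Ndrg1 have no window in the table, so 35 of the 37 listed genes were searched and 26 of them held ACGTG. The variant GCGTG was in 59.2% of the windows of the listed genes and in 43.3% of those of array genes. The longer CACGTG, which contains the core on both strands, was in 12.2% and 8.7%. The windows of the listed genes were also richer in G and C, with a median of 63.3% against 58.3%, and held a median of 21 CG dinucleotides against 16. That difference in composition was not separated from the difference in motif share. Over the full day, the 26 measured genes with ACGTG had a median change of -0.656 in log2 level, ranging from -1.295 to 0.27. The 7 measured genes with a window but no ACGTG had a median of -0.728, and this group holds Adm and Pfkp as well as Ldhb.

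More of these genes fell than rose in each half-day interval. In the first interval 23 of 35 fell, 1 rose (Ldhb) and 11 were not called, at an adjusted p under 0.05 from limma over all genes. Over all 18194 genes 6.74% fell and 6.77% rose, 13.5% in either direction. The probe sets of the listed genes were brighter, with a median level of 6.03 against 2.61 over all genes. Only 13019 of the 18194 genes had a mean level above background, and no share was taken over genes of like brightness. In the second interval 19 fell, 3 rose (Ldhb, Egln1 and Hk1) and 13 were not called, against 10.3% of all genes lower, 14.1% higher and 24.3% in either direction. From GD8.5 to GD9.5 there were 26 falls and 1 rise, against 13.1%, 15.5% and 28.6%. The median change of the 35 was -0.38, -0.22 and -0.69 in log2 level for the first interval, the second interval and the full day, while the median of all genes lay within 0.02 of 0. When each array was centred on its own median, the calls over all genes shifted direction: the share of called genes that were higher in the second interval went from 57.8% to 37.5%, with 17.5% of all genes lower. The listed genes then gave 21 falls and 2 rises in that interval. Without GD8.5 replicate 3 the first interval gave 18 falls and 1526 calls over all genes in place of 2459, and without replicate 4 it gave 17 falls and 1387 calls. With all 12 arrays 15 of the 35 were called in the second interval, and Bnip3, Higd1a, Hk1, Ldha, Pdk3, Slc16a3 and Vegfa lost their calls there. The changes themselves moved little for Ldha (-0.243 against -0.262) and Bnip3 (-0.217 against -0.224). After that scaling, the linear-scale GD8.5 arrays still differed from the log2 ones of that stage, by -0.561 (Adm) to 0.607 (Ddit4) over the listed genes. The part of that difference in the lost calls was not tested.

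**Figure D1:**
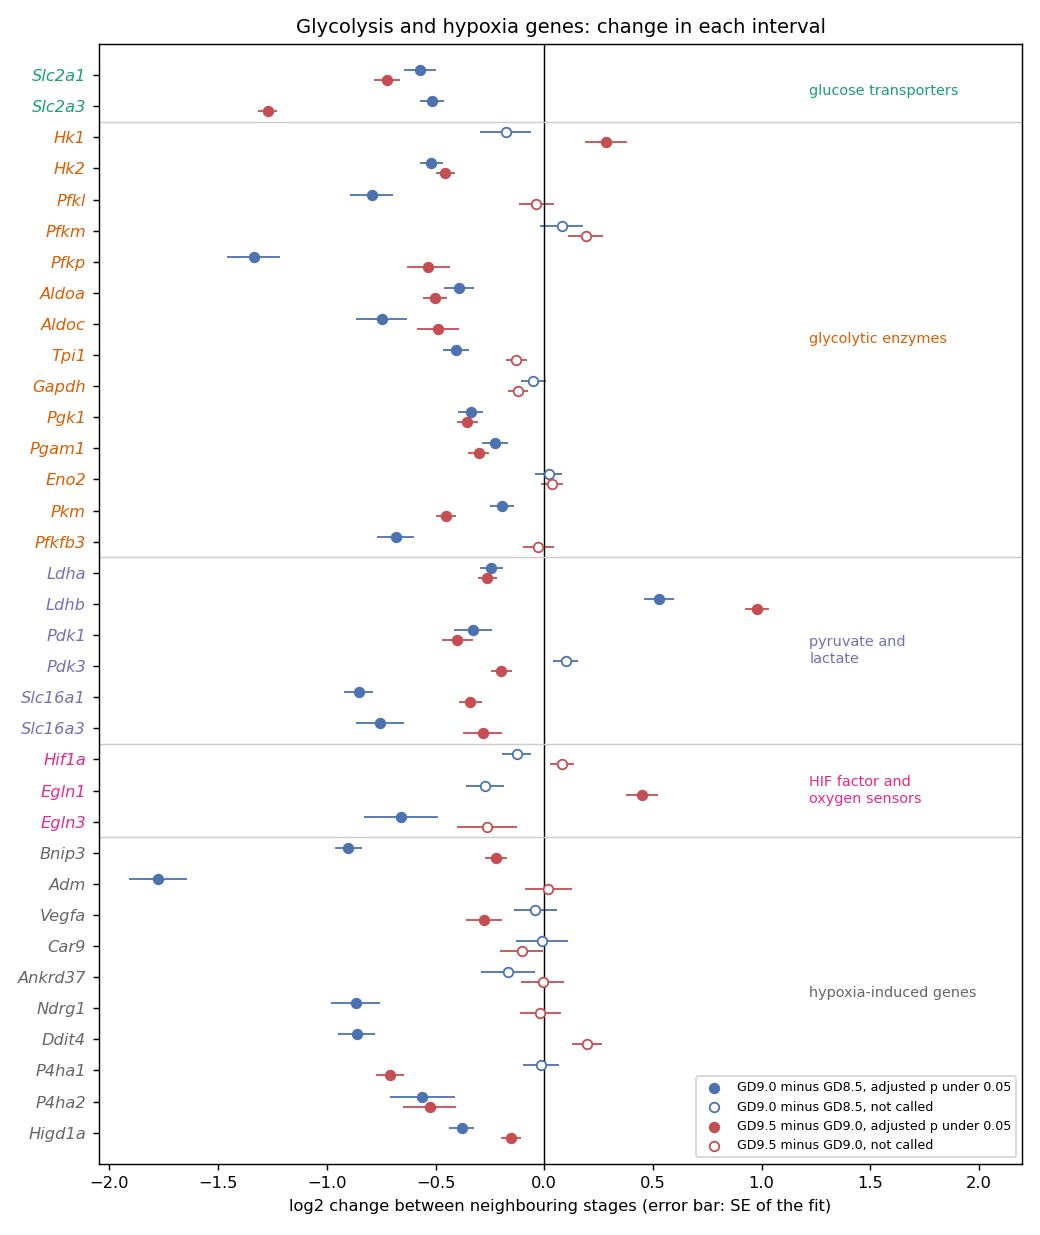
Log2 change of each of the 35 measured genes between neighbouring stages, GD9.0 minus GD8.5 in blue and GD9.5 minus GD9.0 in red, with the SE of the fit as error bars and filled points where the adjusted p was under 0.05. Nearly all filled points lie left of 0, and Ldhb lies to the right in both intervals.

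Markers of other tissues were present and changed with stage beside every result given here. All 8 neural tube markers (Sox1, Sox2, Sox3, Nes, Pax6, Cdh2, Otx2 and Fabp7) were above background at each stage, and their mean log2 level was 6.32 to 6.36 across GD8.5 arrays, 6.78 to 6.86 at GD9.0 and 7.31 to 7.42 at GD9.5. The 8 cardiac markers went the other way, from 6.43 to 6.48 at GD8.5 through 3.43 to 3.55 at GD9.0 to 1.498 to 1.635 at GD9.5, where 4 of the 8 were at background. The 8 endoderm and yolk sac markers went from 7.01 to 7.08 through 3.81 to 3.91 to 1.54 to 1.57, with 3 of 8 at background at GD9.5. Erythroid markers, 7 of 8 measured, stood at 5.16 to 5.37, then 6.47 to 6.55, then 7.14 to 7.29. Surface ectoderm markers stood at 5.31 to 5.32, 4.59 to 4.69 and 4.02 to 4.15. Endothelial markers had means of 3.21, 3.13 and 2.95. Decidua and placenta markers, 5 of 8 measured, had means of 4.36, 2.57 and 2.40. The part of these tissues in the changes below was not tested, and in tissue RNA a smaller share of cells that express a gene cannot be told apart from less RNA per cell. The 18S control signal was 9.82, 8.81 and 10.3 at the 3 stages, and the actin 3′ minus 5′ signal was 0.71, 0.563 and 0.932.

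Both glucose transporters fell in both intervals. Slc2a1 encodes Glut1, the transporter of most embryonic and neural tissue. Its log2 level was 10.84 and 10.90 in the GD8.5 arrays, 10.22, 10.26, 10.35 and 10.36 at GD9.0, and 9.63, 9.43, 9.61 and 9.62 at GD9.5. No stage overlapped another, and each step was downward. Slc2a1 fell by 0.57 ± 0.08 (SE, n = 2 and 4, adjusted p = 0.0003815) and then by 0.72 ± 0.06 (n = 4 and 4, adjusted p = 9.337e-06). Slc2a3 encodes Glut3, a high-affinity transporter that neurons use. It stood at 11.14 and 11.13, then 10.66, 10.63, 10.56 and 10.62, then 9.34, 9.37, 9.33 and 9.33. Its arrays were tight within a stage and far apart between stages, most of all at the second step. Slc2a3 fell by 0.52 ± 0.06 and then by 1.27 ± 0.05 (adjusted p = 1.428e-08), which is 3.46-fold over the full day. The second fall was larger than the first by 0.76 (adjusted p = 0.0002339), while for Slc2a1 the 2 steps were not shown to differ (adjusted p = 0.4697). Slc2a3 was called lower in the second interval by 4 of its 4 probe sets and in the first by 3.

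**Figure D2:**
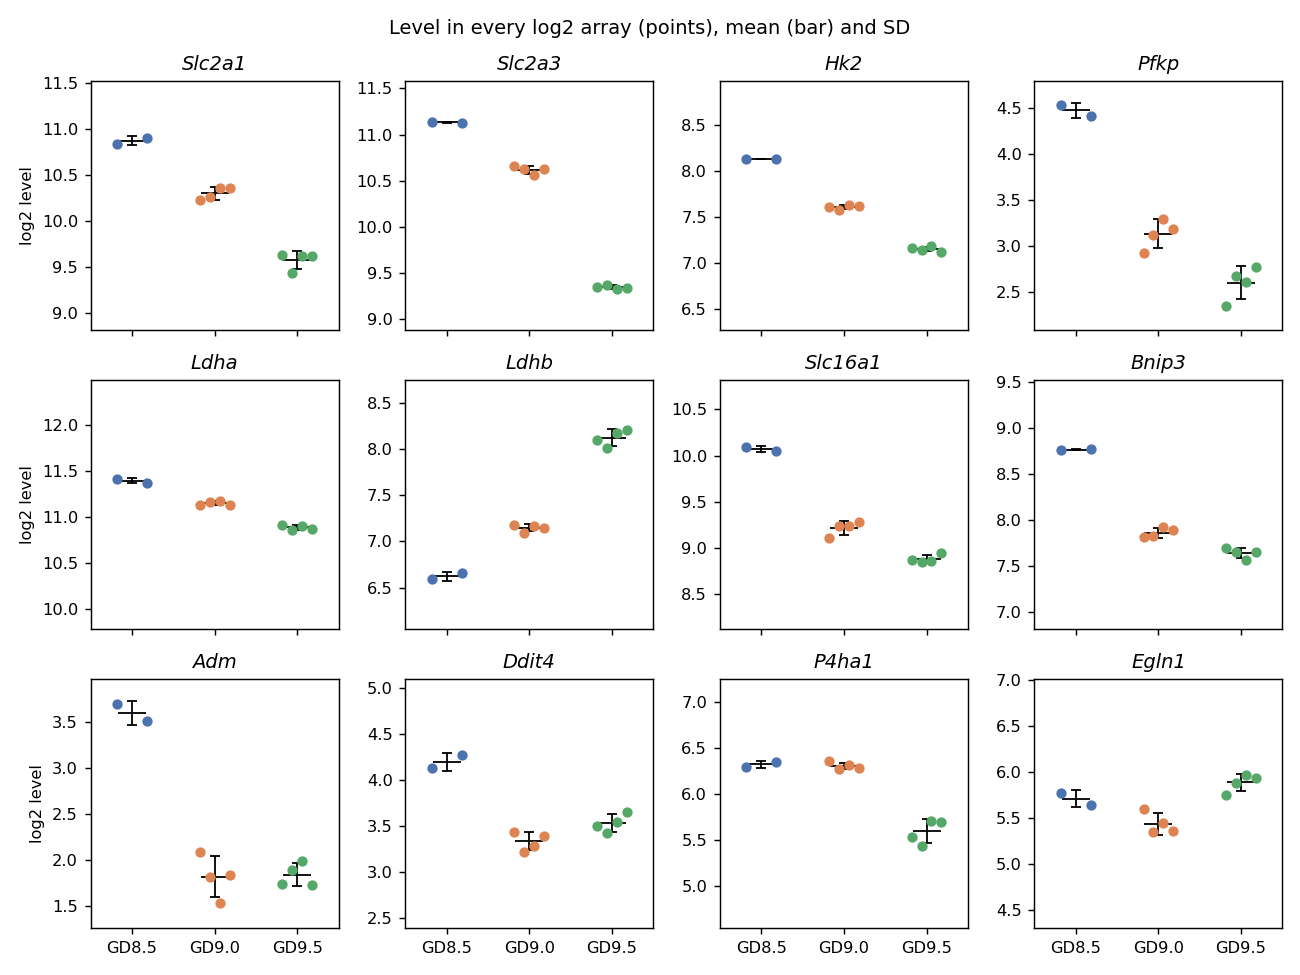
Log2 level in every array (points) with the mean and SD of each stage for 12 genes, each panel spanning the same range of log2 units. Slc2a1, Slc2a3, Hk2 and Ldha step down at both intervals, Adm and Bnip3 drop mainly at the first, P4ha1 drops at the second, and Ldhb climbs.

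Of the 14 glycolytic enzymes measured, 10 fell in the first interval, 7 fell and 1 rose in the second, and 11 were lower over the full day. Hexokinases catalyse the entry step. Hk2 stood at 8.13 and 8.13, then 7.61, 7.58, 7.63 and 7.62, then 7.17, 7.15, 7.18 and 7.12. The stages were separated by many times the spread within them. Hk2 fell by 0.52 ± 0.05 (adjusted p = 6.541e-05) and by 0.46 ± 0.04 (adjusted p = 2.295e-05). Hk1, the ubiquitous hexokinase, did not follow. It stood at 4.05 and 3.94, then 3.91, 3.57, 3.88 and 3.92, then 3.95, 4.15, 4.03 and 4.29, with GD8.5 and GD9.5 overlapping. Hk1 rose by 0.28 ± 0.09 in the second interval at the edge of the threshold (adjusted p = 0.04968). Under 7 of the 9 other settings that measured Hk1 the call was lost, at adjusted p from 0.055 to 0.221, and it was lost without each array in turn except GD9.5 replicate 1.

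The 3 phosphofructokinase genes, which form the committed step, took separate courses. Pfkp, the platelet type, stood at 4.53 and 4.42, then 2.93, 3.12, 3.30 and 3.19, then 2.35, 2.67, 2.61 and 2.77. All GD8.5 values were far above the rest. Pfkp fell by 1.34 ± 0.12 (adjusted p = 2.112e-05) and then by 0.53 ± 0.10 (adjusted p = 0.0022), which is 3.65-fold over the day. Of its 3 probe sets, 2 were called lower in the first interval and 1 in the second. Their changes over the day ran from -1.87 in the brightest to -0.241 in the dimmest, which had a mean level of 1.54. Pfkl, the liver type, stood at 5.58 and 5.59, then 4.70, 4.67, 4.79 and 5.005, then 4.59, 4.80, 4.82 and 4.80. It dropped at once and then stayed in the same range. Pfkl fell by 0.79 ± 0.10 in the first interval (adjusted p = 0.0002718) and changed by -0.04 ± 0.08 in the second, without a call. A dimmer Pfkl probe set, the one whose name marks no shared transcripts, gave -0.0192 in the first interval, also without a call, while the other 2 of its 3 probe sets were called. Pfkm, the muscle type, stood at 4.68 and 4.56, then 4.59, 4.74, 4.79 and 4.68, then 4.84, 4.75, 5.11 and 4.85. Its arrays overlapped between neighbouring stages, and neither change was called. Pfkfb3, which makes the activator of phosphofructokinase, fell by 0.68 ± 0.09 in the first interval (adjusted p = 0.0002811), a call lost with the mean of its probe sets (0.0638), and changed by -0.03 ± 0.07 in the second.

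The aldolases, which split the sugar into smaller ones, fell at both steps. Aldoa stood at 10.62 and 10.59, then 10.19, 10.13, 10.27 and 10.26, then 9.68, 9.63, 9.80 and 9.73, with no overlap of stages. It fell by 0.39 ± 0.07 (adjusted p = 0.002567) and by 0.50 ± 0.06 (adjusted p = 6.439e-05). Aldoc, the brain form, stood at 3.61 and 3.56, then 3.09, 2.85, 2.68 and 2.74, then 2.23, 2.39, 2.54 and 2.23, also in separate ranges. It fell by 0.75 ± 0.12 and 0.49 ± 0.10 (adjusted p = 0.001343 and 0.003281), but its other probe set, which was at background with a mean of 0.961, gave 0.0249 and -0.0882. Pgk1, the first step that yields ATP, fell by 0.34 and 0.35, Pgam1 by 0.23 and 0.30, and pyruvate kinase Pkm by 0.19 and 0.45. The first-interval calls of Pgam1 and Pkm were lost without GD8.5 replicate 3 (adjusted p = 0.0695 and 0.213) and without replicate 4 (0.226 and 0.157). Pgam1 also lost it without any 1 of GD9.0 replicates 2, 3 and 4, at 0.0504 to 0.0568, and Pkm without any other array, at 0.0508 to 0.0882. Tpi1 fell by 0.41 in the first interval (adjusted p = 0.0007622). Its second change, -0.13, was not called (adjusted p = 0.07898), though all GD9.5 arrays lay below all GD9.0 arrays. It was called lower there with arrays centred on their medians (0.0133) or dim genes left out (0.0411). The mean of its probe sets (0.034) and an intensity trend (0.000699) also gave that call. Gapdh, measured here through the manufacturer's control probe sets, was 11.53 ± 0.06, 11.48 ± 0.02 and 11.36 ± 0.03 (SD), called in neither interval. When every probe set was tested, 2 of its 3 were called lower in the second interval (adjusted p = 0.0302 and 0.0126). The alternatives that called Tpi1 there also called Gapdh (6.62e-05 to 0.0389). Over the day Gapdh was lower by 0.17 (adjusted p = 0.04023). That Gapdh call was lost without GD8.5 replicate 3 (adjusted p = 0.267), without replicate 4 (0.078) and without 5 of the other arrays (GD9.0 replicates 2 and 4 and GD9.5 replicates 1, 2 and 4, at 0.0518 to 0.0864). Eno2, the neuronal enolase, was at background at every stage with means of 1.24, 1.26 and 1.29.

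At the pyruvate branch, the lactate dehydrogenase subunits moved apart. Ldha, the subunit that favours making lactate, stood at 11.41 and 11.37, then 11.13, 11.16, 11.17 and 11.12, then 10.91, 10.86, 10.91 and 10.87. Stages did not overlap, though the steps were small. Ldha fell by 0.24 ± 0.05 (adjusted p = 0.01118) and 0.26 ± 0.04 (adjusted p = 0.001158). The first of these calls was lost without GD8.5 replicate 3 (adjusted p = 0.104) and without replicate 4 (0.0611). Ldhb, the subunit that favours using lactate, stood at 6.59 and 6.66, then 7.18, 7.09, 7.17 and 7.15, then 8.10, 8.01, 8.18 and 8.21. It was the only measured gene of the list to be called higher in both intervals, and it did so in 4 of its 4 probe sets. Ldhb rose by 0.53 ± 0.07 (adjusted p = 0.0003815) and by 0.98 ± 0.06 (adjusted p = 5.168e-07), which is 2.84-fold over the day. The second rise exceeded the first by 0.45 (adjusted p = 0.01837), a call that was lost without GD8.5 replicate 4 (adjusted p = 0.0739) and without GD9.0 replicate 2 (adjusted p = 0.0552). With all 12 arrays the excess was 0.28 and not called (adjusted p = 0.409). The linear-scale GD8.5 arrays then differed from the log2 ones by -0.359 for Ldhb.

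Lactate export genes fell as well. Slc16a1 encodes Mct1, which moves lactate and pyruvate across the membrane. It stood at 10.09 and 10.05, then 9.11, 9.24, 9.23 and 9.28, then 8.86, 8.84, 8.86 and 8.94. The large step came first. Slc16a1 fell by 0.85 ± 0.07 (adjusted p = 5.434e-06) and by 0.34 ± 0.05 (adjusted p = 0.0007871). Slc16a3 encodes Mct4, the exporter of strongly glycolytic cells. It was dim, at 2.74 and 2.76, then 1.83, 2.17, 2.17 and 1.80, then 1.79, 1.73, 1.72 and 1.62, and fell by 0.75 ± 0.11 and 0.28 ± 0.09 (adjusted p = 0.0008112 and 0.04193). Its later stages lie near background, and the second call was lost without any 1 array except GD9.0 replicates 1 and 4 (adjusted p = 0.0551 to 0.113). Pdk1 and Pdk3 switch off pyruvate dehydrogenase. Pdk1 stood at 7.12 and 7.01, then 6.71, 6.83, 6.70 and 6.71, then 6.29, 6.33, 6.20 and 6.53, and fell by 0.33 ± 0.09 and 0.40 ± 0.07 (adjusted p = 0.03092 and 0.001899). Its first call was lost without GD8.5 replicate 3 (adjusted p = 0.216), without replicate 4 (0.0911) and without GD9.0 replicate 1, 3 or 4 (0.0622 to 0.0659). When every probe set was tested, 1 of the 4 for Pdk1 was called in the first interval, with changes from -0.328 to -0.147. Pdk3 stood at 6.37 and 6.33, then 6.49, 6.40, 6.50 and 6.40, then 6.27, 6.25, 6.22 and 6.26. Pdk3 fell only in the second interval, by 0.20 ± 0.05 (adjusted p = 0.01109).

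Hif1a itself did not pass the test at any step. Its brightest probe set gave 8.75 and 8.71, then 8.52, 8.69, 8.51 and 8.68, then 8.69, 8.70, 8.65 and 8.69, and the GD9.0 and GD9.5 arrays overlapped. The changes were -0.13 ± 0.07 and 0.08 ± 0.06. Another Hif1a probe set, with a mean level of 4.42, was called lower in the second interval, at -0.986 ± 0.0887 (adjusted p = 1.41e-05), and the mean of the 4 probe sets gave -0.23 (adjusted p = 0.00496). HIF-1 alpha is controlled mainly through the stability of the protein, which arrays do not measure. Egln1 and Egln3 encode oxygen sensors that mark it for breakdown. Egln1 stood at 5.78 and 5.65, then 5.60, 5.34, 5.45 and 5.36, then 5.76, 5.88, 5.97 and 5.94. GD9.0 was the lowest stage, and GD8.5 and GD9.5 overlapped. Egln1 rose by 0.45 ± 0.07 in the second interval (adjusted p = 0.0009699) after -0.27 ± 0.09 in the first (adjusted p = 0.07188). Its other probe set, with a mean level of 5.33, was called lower in the first interval, at -0.449 (adjusted p = 0.00315). The mean of the Egln1 probe sets gave -0.36 there (adjusted p = 0.00109). Egln3, itself a hypoxia-induced gene, stood at 4.22 and 4.68, then 4.06, 3.63, 3.96 and 3.52, then 3.68, 3.54, 3.32 and 3.56, with wide spread. It fell by 0.66 ± 0.17 in the first interval (adjusted p = 0.02438) and changed by -0.26 ± 0.14 in the second, without a call. The first call was lost without GD8.5 replicate 4 (adjusted p = 0.268), GD9.0 replicate 2 (0.0569) or GD9.0 replicate 4 (0.0508).

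Of the 10 hypoxia-induced genes, 6 fell in the first interval, 5 in the second and 8 over the day, and none rose. Adm encodes adrenomedullin, a peptide that widens vessels. It had the largest first-interval fall of the 35 genes, from 3.69 and 3.50 to 2.08, 1.82, 1.53 and 1.84, and then stood at 1.74, 1.88, 1.99 and 1.73. The later stages were alike and close to background. Adm fell by 1.78 ± 0.13, or 3.43-fold (adjusted p = 4.253e-06), followed by a change of 0.02 ± 0.11. Bnip3, which directs mitochondria to autophagy, stood at 8.76 and 8.77, then 7.81, 7.82, 7.92 and 7.90, then 7.69, 7.65, 7.57 and 7.65, a long step and a short one. Bnip3 fell by 0.90 ± 0.06 (adjusted p = 2.207e-06) and by 0.22 ± 0.05 (adjusted p = 0.007277). Ddit4, an inhibitor of mTOR signalling, stood at 4.12 and 4.26, then 3.43, 3.22, 3.28 and 3.39, then 3.49, 3.42, 3.54 and 3.65. It fell by 0.86 ± 0.09 in the first interval (adjusted p = 4.478e-05) and changed by 0.20 ± 0.07 in the second without a call (adjusted p = 0.06122). Ndrg1 stood at 3.58 and 3.31, then 2.60, 2.42, 2.69 and 2.61, then 2.77, 2.48, 2.41 and 2.59, falling by 0.87 ± 0.11 at the first step. Of 5 Ndrg1 probe sets 1 gave that call, and the lowest and highest changes were -0.867 and -0.13. Higd1a, a mitochondrial protein, fell by 0.38 and 0.15, with 1 of 3 probe sets called in the first interval. The others gave 0.0576 and 0.124 there, and the mean of the probe sets gave -0.066 (adjusted p = 0.562). When every probe set was tested, 0 of the 3 for Higd1a were called in the second interval. The second Higd1a call was lost without any 1 of the 8 later arrays except GD9.5 replicate 4 (adjusted p = 0.0572 to 0.0911).

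P4ha1 and P4ha2 encode prolyl 4-hydroxylase subunits, which modify collagen. P4ha1 stood at 6.30 and 6.35, then 6.36, 6.28, 6.31 and 6.29, then 5.54, 5.44, 5.71 and 5.70. The first 2 stages overlapped and the last lay apart. P4ha1 changed by -0.01 ± 0.08 and then fell by 0.71 ± 0.07 (adjusted p = 1.916e-05). P4ha2 stood at 3.85 and 3.90, then 3.20, 3.00, 3.69 and 3.36, then 2.65, 2.79, 2.84 and 2.87, and fell by 0.56 ± 0.15 and 0.53 ± 0.12 (adjusted p = 0.02882 and 0.008398). The first P4ha2 call was lost without GD8.5 replicate 3 (adjusted p = 0.122), GD8.5 replicate 4 (0.166) or GD9.0 replicate 1 (0.0638). Vegfa, the angiogenic ligand, stood at 4.16 and 4.26, then 4.22, 4.29, 4.05 and 4.11, then 3.98, 3.90, 3.68 and 3.99. Vegfa fell in the second interval by 0.28 ± 0.08 (adjusted p = 0.02837), a call lost with 12 arrays (adjusted p = 0.112) and without GD9.0 replicate 1 or 2 or GD9.5 replicate 2 or 3 (0.0545 to 0.0797). Car9, a carbonic anhydrase used as a hypoxia marker, was at background at every stage with means of 1.24, 1.23 and 1.12, and Ankrd37 gave 3.79, 3.63 and 3.62 with no call.

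The 2 half-day steps differed for 12 of the 35 genes. In 10 of them the second change lay above the first, against 6.97% of all genes, and in 2 it lay below, against 4.67% (11.6% in either direction). With arrays centred on their medians those shares over all genes became 4.98% and 9.09%, and 4 of the listed genes then lay below. The gap was 1.79 for Adm, 1.06 for Ddit4, 0.85 for Ndrg1, 0.80 for Pfkp, 0.76 for Pfkl, 0.68 for Bnip3, 0.66 for Pfkfb3 and 0.51 for Slc16a1, all genes that fell more at the first step, and it was 0.72 for Egln1 and 0.45 for Ldhb. Slc2a3 and P4ha1 were the opposite cases at -0.76 and -0.69. Pfkfb3 lost this call when its probe sets were averaged (adjusted p = 0.358), as did Slc16a1 (adjusted p = 0.404) and Ndrg1 (adjusted p = 0.0904), and Pfkp lost it without GD8.5 replicate 3 (adjusted p = 0.0669).

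**Figure D3:**
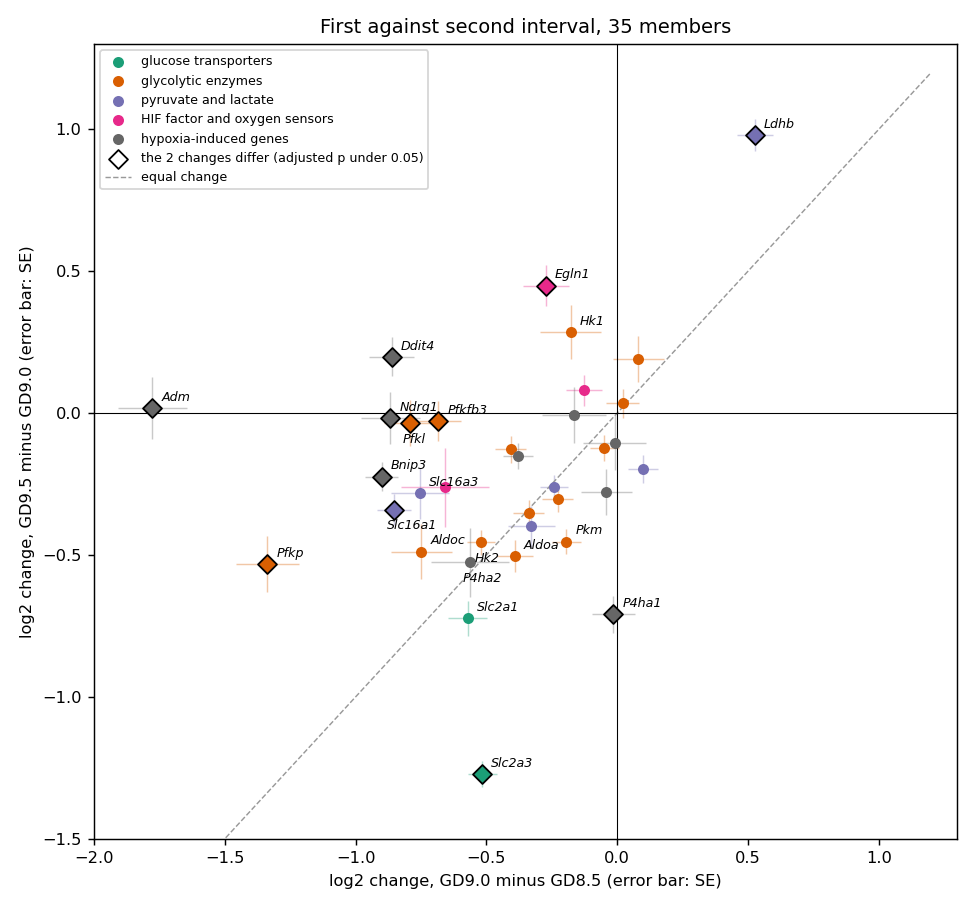
First-interval change (horizontal) against second-interval change (vertical) for the 35 genes, in log2 units with SE bars and coloured by role, where diamonds mark genes whose steps differ at an adjusted p under 0.05. The steps share the GD9.0 arrays, so the scatter of points is no independent comparison. Adm lies far left at 0.02 on the vertical axis, Slc2a3 lowest, and Ldhb farthest into the upper right.

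Of the 35 genes, 16 were called lower in both intervals, against 1.69% of all genes (308). At adjusted p under 0.01 in each interval the count was 9 (177 over all genes), and with at least 1.5-fold in each it was 0 (78 over all genes). They were Slc2a1, Slc2a3, Hk2, Pfkp, Aldoa, Aldoc, Pgk1, Pgam1, Pkm, Ldha, Pdk1, Slc16a1, Slc16a3, Bnip3, P4ha2 and Higd1a. Without GD8.5 replicate 3, or without replicate 4, the count was 10, and over all genes it was 218 and 239. With all 12 arrays it was 11. Called lower only at the first step were Pfkl, Tpi1, Pfkfb3, Egln3, Adm, Ndrg1 and Ddit4, and called lower only at the second were Pdk3, Vegfa and P4ha1. Pfkm, Gapdh, Eno2, Hif1a, Car9 and Ankrd37 had no call in either.

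Some of the isozyme partners changed by unequal amounts. The difference of log2 values within each array was tested in the same fit for 11 pairs, with p adjusted over genes and pairs together, and 6 pairs were called in the first interval, 6 in the second and 8 over the full day. No share was taken over other pairs of genes, so these counts have no background beside them. The pairs among Pfkl, Pfkm and Pfkp also draw on the same genes. Without GD8.5 replicate 3 the first interval gave 3 pairs, and without replicate 4 it gave 4. Ldha and Ldhb parted by -0.77 in the first interval, -1.24 in the second and -2.01 ± 0.07 over the day (adjusted p = 3.17e-09). Pfkm gained on Pfkp by 1.42 and 0.72, or 2.14 ± 0.13 over the day (adjusted p = 2.28e-07). Hk1 gained on Hk2 by 0.34 without a call (adjusted p = 0.0835) and then by 0.74 (adjusted p = 0.000195). Slc2a1 and Slc2a3 fell nearly alike at first, with a difference of -0.06 ± 0.09 (adjusted p = 0.772), and then parted by 0.55 ± 0.07 (adjusted p = 0.000228). Egln1 gained on Egln3 by 0.71 in the second interval. In the second interval all 6 called pairs, Pfkl with Pfkp among them, had complete separation of 4 arrays against 4, with an exact two-sided permutation p of 0.0286, the smallest that this design can give. Aldoa with Aldoc and Slc16a1 with Slc16a3 were not called in any comparison, and their shifts over the day were 0.34 ± 0.13 and -0.16 ± 0.12.

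**Figure D4:**
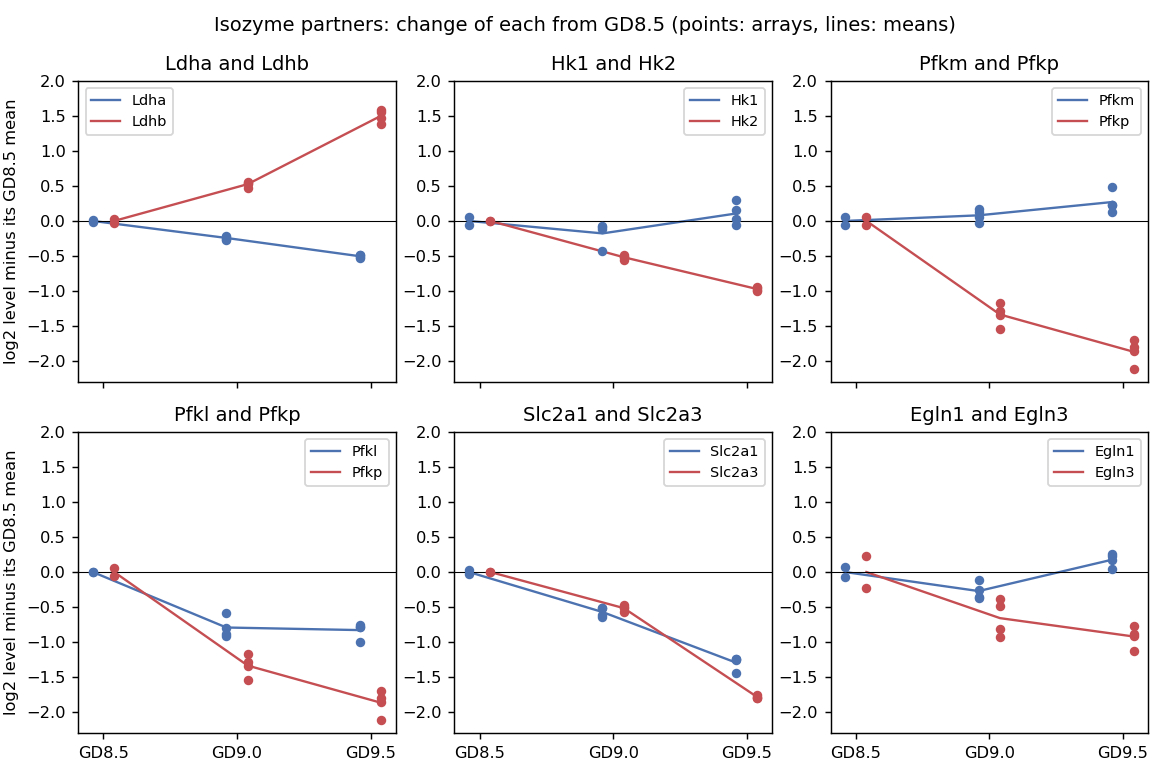
Log2 level of 6 pairs of isozyme partners minus each gene's own GD8.5 mean, with arrays as points and stage means joined by lines. Ldha and Ldhb open like scissors to 2.01 log2 units at GD9.5, Pfkp drops away from Pfkl and Pfkm, and Slc2a3 drops below Slc2a1 at GD9.5.

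Genes next to these pathways were read from further lists, beside the 13.5%, 24.3% and 28.6% of all genes called in either direction in the first interval, the second and over the day. Of 31 other hypoxia-induced genes measured (34 listed), 5 fell and none rose in the first interval, 9 fell and 3 rose in the second, and 15 fell and 3 rose over the day, or 16.1%, 38.7% and 58.1% called, with a full-day median of -0.20. Plod2, a collagen lysyl hydroxylase, fell by 0.80 in the first interval (adjusted p = 1.93e-05), and Fam162a fell by 0.92 over the day while Angptl4 rose by 0.63. In the HIF pathway itself, 14 genes gave 1 rise and 2 falls (21.4% called), then 6 rises and 2 falls (57.1%). Epas1, the HIF-2 alpha subunit of endothelium and other tissues, fell by 2.10 in the first interval (4.49 to 2.39, adjusted p = 1.38e-06). It stood at 2.89 at GD9.5, so its full-day change was smaller, at -1.59 (adjusted p = 5.28e-06). Arnt2, the neural partner subunit, rose by 0.46 and 0.71. Hif1an, an inhibitor of HIF, rose by 0.64 in the second interval, and Cited2, which competes for a coactivator, fell by 0.52 and 0.20.

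Entry of pyruvate into mitochondria was measured through 11 of 12 listed genes, with 2 rises and no falls at first (18.2% called), then 3 rises and 1 fall (36.4%). Mpc1, a subunit of the pyruvate carrier, rose by 0.60 and 1.18, from 4.06 to 5.84 over the day (adjusted p = 4.81e-07). Pdp1, which reactivates pyruvate dehydrogenase, rose by 0.86 in the second interval, and Pdha1, a subunit of that enzyme, fell by 0.40. None of 9 pentose phosphate genes was called in the first interval, and 3 rose and 1 fell in the second (44.4% called), led by Rpia at 0.86 and Tkt at 0.33. Of 22 other glycolytic isozymes and regulators, 4 fell and 1 rose at first (22.7% called), and 3 fell and 1 rose later (18.2%, under the share of all genes). Slc2a2, the Glut2 transporter of liver and endoderm, fell by 3.26 in the first interval, beside the endoderm markers given above. Glycogen and gluconeogenic genes, 14 of 15 measured, gave 3 falls and 1 rise and then 4 rises (28.6% called each time), with Pygl lower by 0.96 in the first interval and Ugp2 higher by 0.32 in the second.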

How the data were processed

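The table deposited by the authors holds 1 value per probe set and array. Per the submitters' processing notes, Affymetrix Expression Console 1.2.1, RMA and GCRMA were used, with no role or order given. From the values, 10 columns are deposited as log2 values and 2 (GD8.5 replicates 1 and 2) as linear intensity, so the authors' deposited intensity columns entered only an alternative with all 12 arrays. Their number limits the precision.

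Of 45101 probe sets, 34958 named 1 gene, 932 several and 9211 none in the platform annotation, and the 64 control sets were left out except for Gapdh, which only they measure. The brightest single-gene set stood for each of 18194 genes. Each gene had 1 mean per stage in a linear model (limma 3.58.1, R 4.3.3), with Benjamini-Hochberg adjustment over all genes and calls at 0.05. Pair differences were adjusted with the genes together, in place of over the pairs alone as first planned. On simulated data with 200 changed genes among 18194, GD9.0 against GD8.5 recovered 19.4% of 1.2-fold, 70.1% of 1.5-fold and 95.5% of 2-fold changes, with 14 false calls. Each fold was given to 66 or 67 genes. GD9.5 against GD9.0 recovered 29.9%, 80.6% and 100%, with 8 false calls. GD9.5 against GD8.5 recovered 19.4%, 83.6% and 89.4%, with 11. In each comparison, simulated once, the false calls made up a larger share of all calls than 0.05. No columns were left unused, and no arrays were identical.

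The members and gene lists were chosen with earlier results of these data known. Genes given in full are, per role and comparison, the 3 called genes with the largest change, both genes of a called pair, and genes against their role's direction. From the other lists up to 2 called genes per direction were named. Ddit4, Pfkfb3, Tpi1, Gapdh and Higd1a were given values beyond that rule after their values were seen. Alternatives were other scalings, probe set rules, filters, variance models, thresholds, a block and left-out arrays.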

Additional observations from a re-analysis of the deposited data

Results flagged for a closer look

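In 6 of the 70 groups of 4 arrays, 1 array stood apart from the other 3, and chance flags about 1 in 20 groups. Slc2a1 was 9.43 in GD9.5 replicate 2 against 9.61 to 9.63 in the others. Hk1 was 3.57 in GD9.0 replicate 2 against 3.88 to 3.92. Pfkl was 4.59 in GD9.5 replicate 1 against 4.80 to 4.82, Pdk1 was 6.83 in GD9.0 replicate 2 against 6.70 to 6.71, and Ankrd37 was 3.94 in GD9.0 replicate 1 against 3.50 to 3.56. Hif1a was 8.65 in GD9.5 replicate 3 against 8.69 to 8.70.

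The change from GD9.0 to GD9.5 differed from the change from GD8.5 to GD9.0 for 12 genes, by limma's test of the difference itself. The second change minus the first was 1.79 for Adm, 1.06 for Ddit4, 0.85 for Ndrg1, 0.80 for Pfkp, 0.76 for Pfkl, 0.72 for Egln1, 0.68 for Bnip3, 0.66 for Pfkfb3, 0.51 for Slc16a1 and 0.45 for Ldhb, and it was -0.69 for P4ha1 and -0.76 for Slc2a3. Adm was near background from GD9.0 on. The same test gave a second change above the first for 5 of 8 cardiac and 5 of 8 endoderm and yolk sac markers. It lay below for 1 and 2 of them. Over all genes the shares were 6.97% above and 4.67% below. By GD9.5, 4 of the cardiac and 3 of the endoderm and yolk sac markers were at background, which limits a further fall. The part of these tissues in the differences was not tested.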

How the results depend on the processing

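Of the 24 genes called in the first interval, 18 were measured in all 10 alternatives that leave out no single array, and 10 of these kept their call in each; of the other 6, 4 kept it wherever they were measured. In the second interval 11 of 16 and 3 of 6 did so, and over the full day 16 of 21 and 6 of 6. Hif1a in the second interval became -0.23 with the mean of its probe sets, and with probe sets of shared transcripts left out Aldoc in the first interval became 0.025, the interval difference of Pfkl became -0.16 and that of the pair Pfkl/Pfkm -0.27. With those sets left out, 27 members and 8 pairs were measured. Ldhb, the only listed gene called higher in the first interval and over the day, has only such sets and was not measured there. In the first interval 13 members were called (13 lower, 0 higher), and 1 was higher in the second. Over the day 17 members were called (17 lower, 0 higher), with 5 pairs, and 2 pairs were called in the interval difference. Lower in both intervals were 9 genes. At 1.5-fold or more the first interval had 11 called genes, all 11 lower and 0 higher, with 3 pairs, and the second had 4, of which 3 lower and 1 higher. At adjusted p under 0.01 no pair (0) differed between intervals. Genes lower in the interval difference numbered 4 with centred arrays, dim genes left out, or an intensity trend. Genes higher over the day numbered 2 with 12 arrays, dim genes left out, an intensity trend, array weights or a replicate block.

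The replicate numbers did not pair samples, with correlations from -0.0619 to 0.101 over 8 same-number comparisons. With a replicate block the 3 comparisons called 20, 20 and 27 genes, 2 pairs in the interval difference and 10 genes lower in both intervals. Leaving out 1 array gave 3 to 6 pairs in the first interval, 0 to 4 in the interval difference and 1 to 2 genes higher over the day. Over all genes, 12 arrays gave 2294 calls in the second interval and 1086 in the interval difference, and the latter was 1373 without GD8.5 replicate 3 and 1403 without replicate 4. At 1.5-fold the all-gene counts were 777, 831 and 1777, and 1135 for the interval difference, and at adjusted p under 0.01 they were 1391, 2814 and 987 where they moved. What caused these shifts was not tested.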
